A study of Mus musculus with 50 samples.

Results

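The 10 genes described here belong to 3 clusters of imprinted genes of the mouse, out of 18055 genes in the table of normalised read counts. They were chosen by name and by the presence of their symbol in that table, and no measured value entered the choice. Cdkn1c, Phlda2, Ascl2, Kcnq1 and Slc22a18 form the Cdkn1c/Kcnq1 cluster and H19 and Igf2 the Igf2/H19 cluster, both on chromosome 7, and Dlk1, Meg3 and Rian form the Dlk1/Meg3 cluster on chromosome 12. The study edited the catalytic subunits of Polycomb repressive complex 2 (PRC2) in E14TG2a mouse embryonic stem cells (ESCs), which were cultured with LIF, serum and inhibitors of GSK3 and MEK. WT cells carry no edit. Ezh2 KO cells lack the Ezh2 gene and keep Ezh1. Ezh1/2 dKO cells lack both genes. Ezh2 Y726D cells carry a point mutation of Ezh2 that the study describes as catalytically inactive, and Ezh2 R685C cells another Ezh2 point mutation, both made in Ezh1 KO cells, so that neither mutant line is compared with a line that lacks Ezh1 alone. For the HA samples, Ezh1/2 dKO cells were taken with and without Flag-HA-tagged human EZH1, which was transfected and selected with puromycin. The lines were derived from edited clones, and the number of clones is not given in the sources used here.

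Genomic imprinting means that a gene is transcribed mainly from the copy inherited from 1 parent. Each of these clusters is governed by an imprinting control region that carries DNA methylation on 1 parental copy, upstream of H19, at the start of the long noncoding RNA Kcnq1ot1 inside Kcnq1, and upstream of Meg3. PRC2 places methyl groups on lysine 27 of histone H3 (H3K27me1, me2 and me3), SUZ12 is a core subunit of PRC2, and in the placenta Kcnq1ot1 is known to silence neighbouring genes together with PRC2. The measurements used here do not separate the parental copies.

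Gene expression was measured by RNA-seq in 2 libraries each of 4 lines (WT, Ezh2 KO, Ezh2 Y726D and Ezh1/2 dKO), which held 3604123 to 5181553 reads on genes. Ezh2 had 598 and 546 normalised read counts in WT, 1.05 and 0.968 in Ezh2 KO, 0.824 and 1.78 in Ezh1/2 dKO and 422 and 613 in Ezh2 Y726D libraries, and Ezh1 had 227 to 378 in the lines that keep it and 14.01 to 24.1 in the others, as the labels state. SUZ12 and H3K27me3 peaks were listed for all 5 lines, H3K27ac peaks for the 4 mutant lines, H3K27me1, H3K27me2 and ATAC-seq regions for the 4 lines with RNA-seq, and HA peaks for the 2 HA samples, each from 1 library. The number of reads behind a list is unknown, so peaks are compared by their rank within their own list and no difference between lists was tested. Coordinates are those of mm9.

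In the Ezh2 Y726D list, which held 3862 H3K27me3 peaks against 16754 in WT, peaks lay at control regions of 2 clusters and at the starts of few of these genes. The paper reports almost no H3K27me3 peaks in this line, and on blots a loss of all H3K27 methylation. Whether the listed peaks reflect methylation by PRC2 was not tested. The sequences around the summits are shown first, with all CG dinucleotides, the sites of DNA methylation, in capitals. Each is the 300 bases of the plus strand of mm9 around the summit of the strongest H3K27me3 peak in the region. The first lies at chr7:149767092-149767391, 3193 bases upstream of the H19 start, between genes, and holds 7 CpG. The second lies at chr7:150481251-150481550, 1052 bases downstream of the Kcnq1ot1 start, inside Kcnq1ot1 and the antisense Kcnq1 gene, and holds 22 CpG. The third, from the Ezh2 KO list because the Ezh2 Y726D list has no peak there, lies at chr12:110764825-110765124, 14237 bases upstream of the Meg3 start, and holds 13 CpG.
H19 upstream, Ezh2 Y726D: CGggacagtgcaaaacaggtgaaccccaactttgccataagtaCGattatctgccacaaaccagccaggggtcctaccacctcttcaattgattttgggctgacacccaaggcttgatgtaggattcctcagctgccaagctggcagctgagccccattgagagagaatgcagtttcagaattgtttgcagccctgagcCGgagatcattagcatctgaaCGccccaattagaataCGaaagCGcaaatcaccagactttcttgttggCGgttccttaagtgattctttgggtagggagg
Kcnq1ot1 start, Ezh2 Y726D: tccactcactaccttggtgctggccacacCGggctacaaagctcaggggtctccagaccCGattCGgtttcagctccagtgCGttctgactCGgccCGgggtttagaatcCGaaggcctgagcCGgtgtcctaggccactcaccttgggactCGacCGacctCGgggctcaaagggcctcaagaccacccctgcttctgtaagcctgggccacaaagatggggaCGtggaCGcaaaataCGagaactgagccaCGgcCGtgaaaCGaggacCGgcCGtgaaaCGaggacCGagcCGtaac
Meg3 upstream, Ezh2 KO: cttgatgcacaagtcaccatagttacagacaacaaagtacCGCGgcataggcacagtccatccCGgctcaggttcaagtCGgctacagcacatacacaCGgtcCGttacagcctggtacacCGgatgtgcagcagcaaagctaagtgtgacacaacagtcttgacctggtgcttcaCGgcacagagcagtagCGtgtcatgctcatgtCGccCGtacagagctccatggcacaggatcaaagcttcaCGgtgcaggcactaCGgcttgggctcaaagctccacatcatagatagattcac
Of the windows of the same length around all H3K27me3 summits of the Ezh2 Y726D list, with a median of 4 CpG, 77.2% had fewer CpG than the H19 window and 99.4% fewer than the Kcnq1ot1 window. The Meg3 window stood above 63.9% of those of the Ezh2 KO list, whose median was 8.

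The promoters of 5 of the 10 genes are shown as examples of CpG-rich and CpG-free starts, as the 250 bases before the RefSeq start (GRCm38.p6, on the gene's own strand), again with CG in capitals and with the mm9 place where the same letters occur. Phlda2 (chr7:150688430-150688679, minus strand) had 21 CpG, Ascl2 (chr7:150155170-150155419, minus) 19 and this Igf2 promoter (chr7:149844710-149844959, minus) 22. The promoters of Slc22a18 (chr7:150659444-150659693, plus) and Rian (chr12:110841905-110842154, plus) had 0.
Phlda2: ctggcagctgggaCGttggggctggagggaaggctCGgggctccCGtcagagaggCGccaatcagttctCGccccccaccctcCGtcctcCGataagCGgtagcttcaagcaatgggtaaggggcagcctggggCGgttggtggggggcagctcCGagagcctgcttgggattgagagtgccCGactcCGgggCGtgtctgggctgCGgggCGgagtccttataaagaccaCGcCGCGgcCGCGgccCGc
Ascl2: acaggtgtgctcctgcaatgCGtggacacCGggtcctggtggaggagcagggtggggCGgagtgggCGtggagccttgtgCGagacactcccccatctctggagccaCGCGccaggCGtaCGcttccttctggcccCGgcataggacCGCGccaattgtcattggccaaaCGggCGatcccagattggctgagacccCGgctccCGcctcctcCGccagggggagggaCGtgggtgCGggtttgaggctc
Igf2: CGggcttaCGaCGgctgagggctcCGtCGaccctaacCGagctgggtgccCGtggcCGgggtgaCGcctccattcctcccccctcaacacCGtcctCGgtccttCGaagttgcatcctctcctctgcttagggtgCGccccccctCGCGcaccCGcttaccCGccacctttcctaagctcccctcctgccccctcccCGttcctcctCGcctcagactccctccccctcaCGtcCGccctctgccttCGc
Slc22a18: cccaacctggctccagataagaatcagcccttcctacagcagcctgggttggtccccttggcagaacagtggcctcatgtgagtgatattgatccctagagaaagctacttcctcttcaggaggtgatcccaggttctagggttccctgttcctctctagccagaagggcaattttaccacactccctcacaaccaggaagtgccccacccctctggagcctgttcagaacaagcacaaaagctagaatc
Rian: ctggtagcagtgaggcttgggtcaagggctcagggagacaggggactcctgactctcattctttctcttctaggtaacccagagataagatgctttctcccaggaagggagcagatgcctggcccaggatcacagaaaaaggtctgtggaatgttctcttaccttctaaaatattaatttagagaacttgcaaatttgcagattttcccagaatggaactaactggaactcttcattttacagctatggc
The median over 32851 RefSeq promoters was 6 CpG. Phlda2, Ascl2 and this Igf2 promoter thus stood above 83.7%, 80.3% and 85.2% of all promoters. The Igf2 promoter richest in CpG was taken, and the others of this gene had 1, 6 and 10 CpG. SUZ12 peaks of WT cells lay within 5 kb of a start site of these 3 genes and not of Slc22a18 or Rian. The median CpG count around WT SUZ12 summits was 23, in windows of 300 bases, longer than the 250 bases of the promoters. Dlk1, with 8 CpG in its promoter, also had a SUZ12 peak, and Meg3, with promoters of 10 and 0 CpG, had none. The table held 11 promoters of 7 of the 10 genes and none of Cdkn1c, H19 and Kcnq1.

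Cdkn1c, Phlda2 and Ascl2, growth-restraining or placental genes of the Cdkn1c/Kcnq1 cluster, were lowest in Ezh2 KO cells and higher in Ezh1/2 dKO and Ezh2 Y726D cells. All 3 were called higher in Ezh1/2 dKO than in Ezh2 KO libraries and higher in Ezh2 Y726D than in Ezh2 KO libraries. Against WT, Phlda2 in Ezh2 Y726D was the only call among the 7 genes tested. A gene was tested where its mean normalised count over the 8 libraries was at least 5, and called at a Benjamini-Hochberg adjusted p under 0.1 (limma, over 13872 genes) with a log2 fold change of at least 1 in size. Fold changes are on the scale of log2 of the normalised count plus 1, and their errors are standard errors (SE). Kcnq1, H19 and Dlk1 were under the count minimum, so the 7 are not all of the genes. The labels do not say whether the 2 libraries of a line came from separate cultures. The paper's reporting summary mentions biological replicates in its ChIP-seq part, without describing those of RNA-seq. The p-values thus measure the spread between these libraries, which may be technical. In bulk RNA, fewer cells that express a gene and less RNA per cell cannot be told apart.

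**Figure D1:**
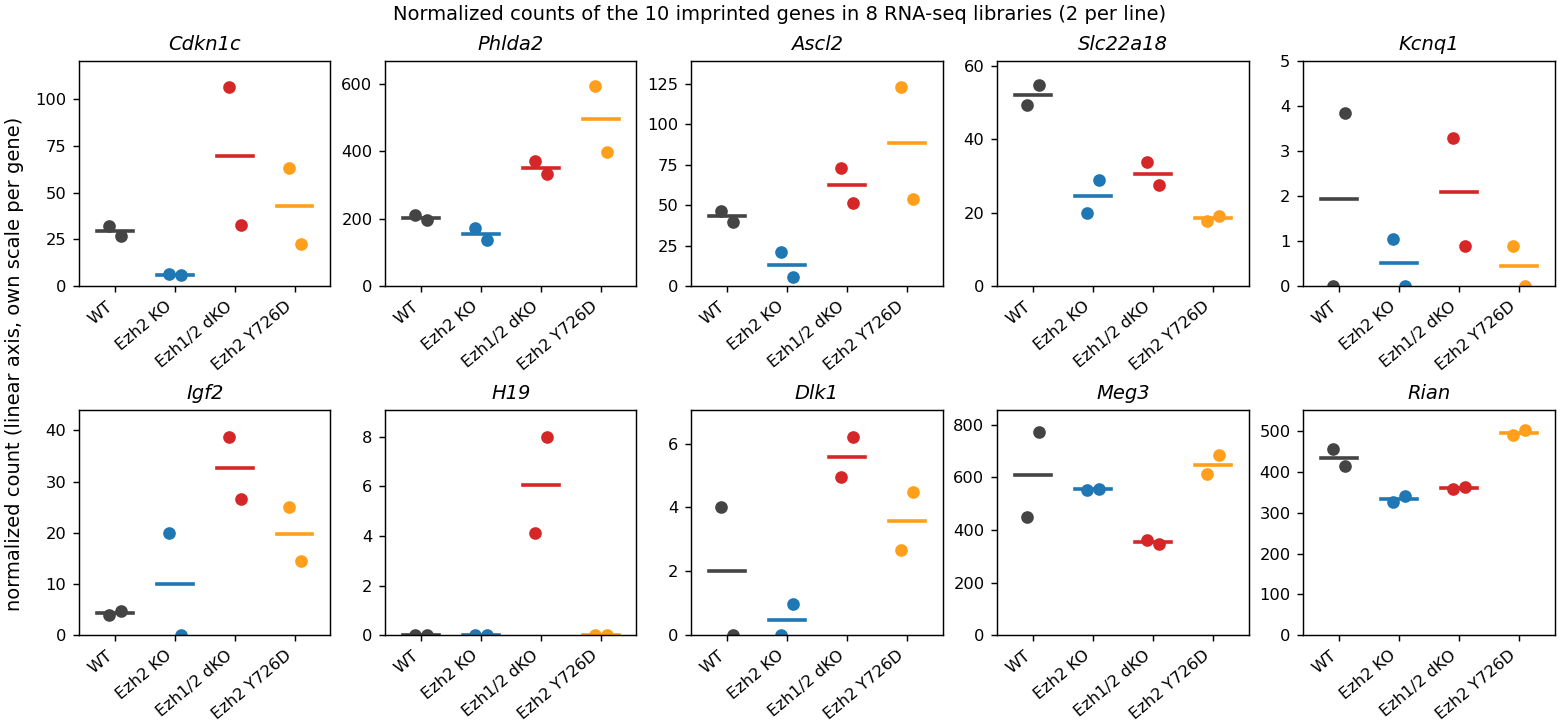
Normalised read counts (linear axis, own scale for each gene) of the 10 imprinted genes in 8 RNA-seq libraries, with 2 points and a mean bar for each line. Cdkn1c, Phlda2 and Ascl2 are lowest in both Ezh2 KO libraries, and H19 is above 0 only in the 2 Ezh1/2 dKO libraries.

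Cdkn1c (chr7:150644255-150646955) encodes p57, an inhibitor of cyclin-dependent kinases that is expressed from the maternal copy. Its normalised read counts were 32.02 and 26.96 in WT, 6.27 and 5.81 in Ezh2 KO, 106 and 32.9 in Ezh1/2 dKO, and 63.3 and 22.4 in Ezh2 Y726D libraries. Both Ezh2 KO libraries lay below all others, while the 2 libraries of Ezh1/2 dKO and of Ezh2 Y726D differed from each other by more than the WT libraries did. The log2 fold change of Ezh2 KO against WT was -2.11 ± 0.63 (SE, adjusted p = 0.317, limma), which was not called. Against Ezh2 KO, Cdkn1c was higher by 3.10 ± 0.63 in Ezh1/2 dKO (adjusted p = 0.0418, limma) and by 2.46 ± 0.63 in Ezh2 Y726D (adjusted p = 0.0896, limma). The second call was lost in 10 of 18 alternative settings (adjusted p = 0.0132 to 0.328 over the 18), among them edgeR (adjusted p = 0.105), a pseudocount of 5 (0.119), no filter on low values (0.141) and the fit without Ezh2 Y726D replicate 1 (0.186). The reads behind the Ezh2 KO values were 6 in each library, so the ratio of summed reads of Ezh1/2 dKO to Ezh2 KO, 11.8, has a counting interval of 6.56 to 23.2 (95%, exact binomial). Such intervals cover counting error only. Against WT, the direction in Ezh2 Y726D rested on replicate 1, and without it the log2 fold change was -0.38 in place of 0.35.

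Phlda2 (chr7:150687450-150688446), which encodes a pleckstrin homology domain protein that limits placental growth, had 211 and 196 normalised read counts in WT, 174 and 136 in Ezh2 KO, 370 and 331 in Ezh1/2 dKO, and 595 and 398 in Ezh2 Y726D libraries. The lines did not overlap, in the order Ezh2 KO, WT, Ezh1/2 dKO and Ezh2 Y726D. The Ezh2 Y726D libraries were higher than WT by 1.26 ± 0.23 on the log2 scale (adjusted p = 0.0342, limma), where 1.66% of the genes tested were called higher. This call was lost without Ezh2 Y726D replicate 1, where the log2 fold change was 0.97, and in a fit of only the 4 libraries compared (adjusted p = 0.148, limma). The Ezh1/2 dKO libraries were higher than WT by 0.78 ± 0.23 (adjusted p = 0.112, limma), which was not called. Against Ezh2 KO, Phlda2 was higher by 1.19 ± 0.23 in Ezh1/2 dKO (adjusted p = 0.0319, limma) and by 1.66 ± 0.23 in Ezh2 Y726D (adjusted p = 0.00953, limma). The Ezh2 KO libraries differed from WT by -0.40 ± 0.23 (adjusted p = 0.662, limma), which was not called. The difference between Ezh2 Y726D and Ezh1/2 dKO was 0.47 ± 0.23 (adjusted p = 0.418, limma). No lines next to each other in the order were thus separated by the test.

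Ascl2 (chr7:150152727-150155169), a basic helix-loop-helix transcription factor that the trophoblast lineage needs, had 46.7 and 39.5 normalised read counts in WT, 20.9 and 5.81 in Ezh2 KO, 73.4 and 51.5 in Ezh1/2 dKO, and 123 and 53.7 in Ezh2 Y726D libraries. The Ezh2 KO libraries were again the lowest, and the Ezh1/2 dKO and Ezh2 Y726D ranges overlapped each other. Against WT, the log2 fold changes were -1.85 ± 0.59 in Ezh2 KO (adjusted p = 0.342, limma), 0.51 ± 0.59 in Ezh1/2 dKO (adjusted p = 0.677, limma) and 0.91 ± 0.59 in Ezh2 Y726D (adjusted p = 0.556, limma), and none was called. Against Ezh2 KO, Ascl2 was higher by 2.36 ± 0.59 in Ezh1/2 dKO (adjusted p = 0.0834, limma) and by 2.75 ± 0.59 in Ezh2 Y726D (adjusted p = 0.0499, limma). The first of these calls was lost in 7 of 18 alternative settings (adjusted p = 0.0152 to 0.475 over the 18), edgeR included, and the second in 2 (0.000969 to 0.241 over the 18).

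The 3 genes called higher were 3 of the 7 tested in Ezh1/2 dKO against Ezh2 KO, where 3.52% of all genes tested were called higher, and 3 of 7 in Ezh2 Y726D against Ezh2 KO, where the share was 2.31%. Both comparisons use the same 2 Ezh2 KO libraries. The calls depended on single libraries. Without Ezh2 KO replicate 2 or Ezh1/2 dKO replicate 1, 0 of the 7 were called in Ezh1/2 dKO against Ezh2 KO, and without Ezh1/2 dKO replicate 2 only Cdkn1c was. In Ezh2 Y726D against Ezh2 KO, only Phlda2 was called without Ezh2 KO replicate 2, and Cdkn1c was not called without Ezh2 Y726D replicate 1 or Ezh1/2 dKO replicate 1. Without Ezh2 KO replicate 2, the log2 fold change of Ascl2 in Ezh1/2 dKO against Ezh2 KO was 1.51 (adjusted p = 0.33, limma). Without Ezh2 KO replicate 1, Igf2 was called and Cdkn1c was not (adjusted p = 0.205 in Ezh1/2 dKO against Ezh2 KO and 0.28 in Ezh2 Y726D against Ezh2 KO, limma).

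Slc22a18 (chr7:150659626-150685239), a transporter of organic cations, had 49.4 and 54.9 normalised read counts in WT, 19.9 and 29.0 in Ezh2 KO, 33.8 and 27.5 in Ezh1/2 dKO, and 17.83 and 19.02 in Ezh2 Y726D libraries. All 6 libraries of the edited lines lay below both WT libraries. The log2 fold changes against WT were -1.08 ± 0.38 in Ezh2 KO (adjusted p = 0.417, limma), -0.75 ± 0.38 in Ezh1/2 dKO (adjusted p = 0.322, limma) and -1.45 ± 0.38 in Ezh2 Y726D (adjusted p = 0.106, limma), and none was called. Kcnq1 (chr7:150293159-150612955), a potassium channel subunit, had few reads summed over the 2 libraries of a line, with 4 in WT, 5 in Ezh1/2 dKO, 1 in Ezh2 KO and 1 in Ezh2 Y726D. At this depth no difference was detectable, as the ratio of Ezh1/2 dKO to WT of 0.955 has a counting interval of 0.206 to 4.82. Kcnq1 overlaps Kcnq1ot1 on the opposite strand and the counting did not use strand, so reads of the pair cannot be told apart where they overlap.

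Igf2 (chr7:149836673-149852721), insulin-like growth factor 2, a paternally expressed growth factor, had 4.002 and 4.814 normalised read counts in WT, 19.9 and 0 in Ezh2 KO, 38.7 and 26.6 in Ezh1/2 dKO, and 24.96 and 14.54 in Ezh2 Y726D libraries. The Ezh1/2 dKO and Ezh2 Y726D libraries lay above both WT libraries, while the 2 Ezh2 KO libraries lay on either side of them. The log2 fold change against WT was 2.62 ± 1.14 in Ezh1/2 dKO (adjusted p = 0.259, limma) and 1.90 ± 1.14 in Ezh2 Y726D (adjusted p = 0.52, limma), neither called. All 8 libraries shared the estimate of the error. Without Ezh2 KO replicate 1, without replicate 2, or in a fit of only the 4 libraries compared, Igf2 was called in Ezh1/2 dKO against WT (adjusted p = 0.073, 0.0542 and 0.0522, limma). In summed reads, Ezh1/2 dKO stood 7.36-fold above WT (counting interval 3.55 to 17.6) and Ezh2 Y726D 4.55-fold (2.1 to 11.2). Igf2 overlaps the antisense gene Igf2as, whose reads cannot be told apart from its own.

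H19 (chr7:149761434-149764048), a maternally expressed long noncoding RNA, had 0 reads in the 6 libraries of WT, Ezh2 KO and Ezh2 Y726D cells and 5 and 9 reads in Ezh1/2 dKO replicates 1 and 2, or 4.12 and 7.99 normalised read counts. With the other group set at a floor of 3 reads, the ratio of Ezh1/2 dKO was 3.57 to WT and 3.97 to Ezh2 KO cells. These ratios leave out the counting error of the Ezh1/2 dKO reads. With 0 reads in the other group, the counting interval of the ratio began at 2.54 for WT and 2.82 for Ezh2 KO cells. H19 failed the count minimum. Where no minimum was applied, it was called higher in Ezh1/2 dKO against WT and against Ezh2 KO.

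Dlk1 (chr12:110691033-110701546), a paternally expressed transmembrane protein of the Notch ligand family, had 3 reads in WT, 13 in Ezh1/2 dKO, 7 in Ezh2 Y726D and 1 in Ezh2 KO, summed over 2 libraries each. The ratio of Ezh1/2 dKO to WT was 3.31 with a counting interval of 0.91 to 18.1. The values of a line did not overlap in Ezh1/2 dKO (4.95 and 6.22 normalised read counts) and WT (4.002 and 0), at counts too low to test.

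Meg3 (chr12:110779211-110809936) and Rian (chr12:110842155-110899919) are maternally expressed long noncoding RNAs of the same cluster, and may share reads with each other and with Mirg where their transcripts join. Meg3 had 448 and 771 normalised read counts in WT, 554 and 555 in Ezh2 KO, 361 and 345 in Ezh1/2 dKO, and 612 and 687 in Ezh2 Y726D libraries. Both Ezh1/2 dKO libraries lay below all others. The log2 fold change of Ezh1/2 dKO against WT was -0.73 ± 0.23 (adjusted p = 0.131, limma), not called, and without WT replicate 1 it was -1.12 and called (adjusted p = 0.0179, limma). Rian had 455 and 415 normalised read counts in WT, 325 and 342 in Ezh2 KO, 359 and 362 in Ezh1/2 dKO, and 490 and 501 in Ezh2 Y726D libraries, so Ezh2 Y726D was highest. Rian differed between Ezh2 Y726D and Ezh2 KO by 0.57 ± 0.14 (adjusted p = 0.0853, limma), below the minimum fold change, and Meg3 was higher in Ezh2 Y726D than in Ezh1/2 dKO by 0.87 ± 0.23 (adjusted p = 0.13, limma), not called.

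In Ezh2 Y726D cells chromosome 12 stood apart as a whole. The median log2 fold change against WT of the 430 tested genes of chromosome 12 was -0.30, and that of the 110 genes within 10 Mb of Dlk1 was also -0.30, against 0.00 on the other chromosomes. Both Ezh2 Y726D libraries showed it (-0.26 and -0.28 against the WT mean). The Ezh2 Y726D lists also held fewer regions of chromosome 12, which made up 1.787% of its H3K27me3 peaks and 4.265% to 4.558% of those of WT, Ezh2 KO and Ezh2 R685C. Its part in the values of Dlk1, Meg3 and Rian was not tested. The values of Meg3 and Rian in Ezh2 Y726D were 0.14 ± 0.23 and 0.19 ± 0.14 against WT on the log2 scale, above the median of their neighbours.

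Against WT, the 7 tested genes gave 0 calls in Ezh2 KO (4 with an unadjusted p under 0.05, limma), where 0.404% of all genes tested were called in either direction, and 0 in Ezh1/2 dKO (3 with an unadjusted p under 0.05), where 4.02% were. edgeR and DESeq2 on the recovered reads also called 0 in both comparisons. The 2 Ezh2 KO libraries lay below both WT libraries for 5 of the 7 genes (Cdkn1c, Phlda2, Ascl2, Slc22a18 and Rian), where 17.6% of all genes tested did. The 2 Ezh1/2 dKO libraries lay above both WT libraries for 4 (Cdkn1c, Phlda2, Ascl2 and Igf2; 28.0% of all genes) and below them for the other 3 (Slc22a18, Meg3 and Rian; 24.5% of all genes). The Ezh2 Y726D libraries lay above both WT libraries for 4 (Phlda2, Ascl2, Igf2 and Rian; 19% of all genes) and below them for Slc22a18 (18.1%). The median log2 fold change of the 7 genes against WT was -0.40 in Ezh2 KO, 0.35 in Ezh2 Y726D and 0.51 in Ezh1/2 dKO, where those of all genes tested were -0.01, -0.01 and 0.01. These 3 comparisons share the WT libraries. Between Ezh2 Y726D and Ezh1/2 dKO, 0 of the 7 were called (2, Meg3 and Rian, with an unadjusted p under 0.05, limma, and 0 by edgeR or DESeq2), where 1.68% of all genes were.

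**Figure D2:**
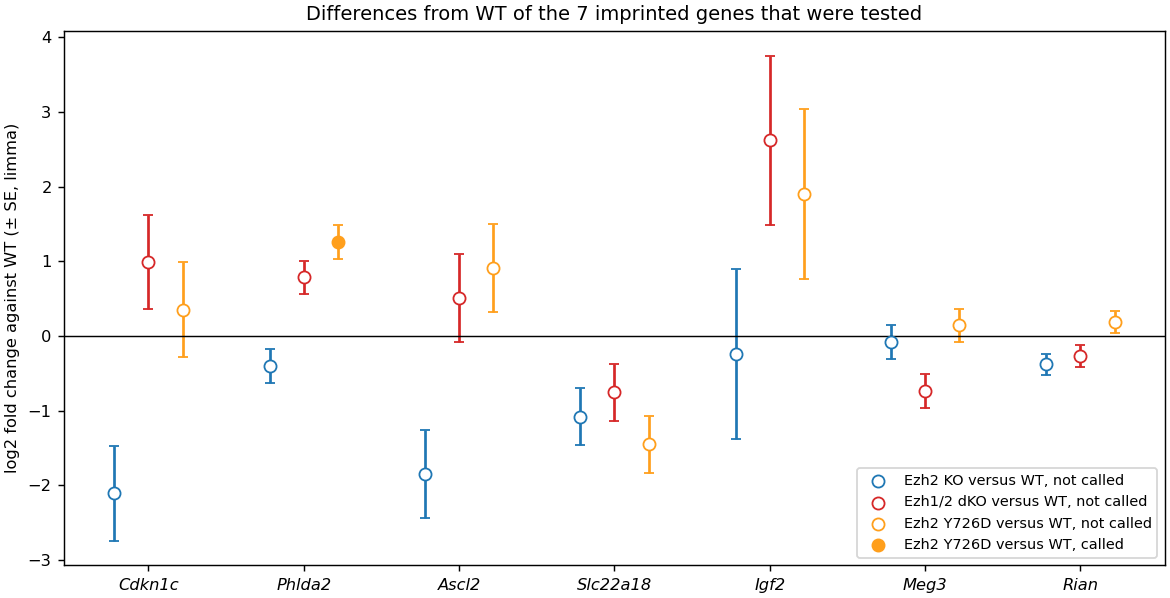
Log2 fold change against WT (limma, bars are SE) of the 7 tested genes in Ezh1/2 dKO, Ezh2 KO and Ezh2 Y726D cells, with 2 libraries per line. Cdkn1c, Phlda2 and Ascl2 are below 0 in Ezh2 KO and above 0 in both other lines, Slc22a18 is below 0 in all 3, and only Phlda2 in Ezh2 Y726D (1.26) was called.

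Some markers of other cell types also differed between the lines. The summed normalised counts of 8 pluripotency markers were 11950 to 14930 in all libraries, and none of the 8 was called against WT. The sum of 7 trophectoderm markers was 344 to 575 in WT and Ezh2 KO, 648 and 909 in Ezh1/2 dKO and 595 and 1235 in Ezh2 Y726D libraries, with Elf5 at 0 to 2.90 and Cdx2 reaching 440 in Ezh2 Y726D replicate 2. The library with the highest Cdx2 had the lower Cdkn1c, Phlda2 and Ascl2 count of its line. The same held between the libraries of Ezh2 KO and of Ezh1/2 dKO. In WT it was reversed, as replicate 1 had more Cdx2 (70.7 against 9.63) and the higher count of each of these genes. The sum of 7 endoderm markers was 9.41 to 27.1 in WT and Ezh2 KO, 133 and 157 in Ezh1/2 dKO and 60.6 and 44.8 in Ezh2 Y726D libraries, with Sox17 and Foxa2 at most 2.89 and Afp under 1, and that of 6 mesoderm markers was 18.8 to 42.4 in WT and Ezh2 KO and 58.5 to 185 in the other lines. Against WT, Krt8 and Krt18, keratins of the trophectoderm list, were called higher in Ezh1/2 dKO and in Ezh2 Y726D cells (log2 fold change 1.54 and 1.97, and 1.59 and 1.65). Their means in Ezh2 KO were 215.7 and 116.3, against 103.3 and 53.05 in WT. No other gene of that list was called against WT. Means in Ezh1/2 dKO, Ezh2 Y726D and WT were 176.5, 116.7 and 160.5 for Tfap2c and 33.58, 77.22 and 32.45 for Eomes. For Hand1 they were 3.932, 9.938 and 2.001. Cdx2 was 33.0 in Ezh2 Y726D replicate 1 and 70.7 in WT replicate 1. The endoderm genes Dab2 and Gata4 were called higher in Ezh1/2 dKO (2.84 and 2.27). The mesoderm gene Meox1 was called higher in Ezh2 Y726D cells (10.95 normalised counts on average, and 0 in both WT libraries). No other mesoderm gene was called against WT. Their means in Ezh1/2 dKO, Ezh2 Y726D and WT were 11.54, 28.41 and 11.78 for T, and 21.15, 14.86 and 14.11 for Mixl1. For Kdr they were 39.64, 66.27 and 13.19, for Tbx6 1.712, 4.685 and 2.111, and for Hand2 3.393, 1.451 and 0. In Ezh2 Y726D replicates 1 and 2, T was 5.35 and 51.46 and Kdr 37.45 and 95.09. No marker of these lists was called against WT in Ezh2 KO cells. The part of these markers in the values of the imprinted genes was not tested.

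The genes whose normalised counts were most like those of the called genes over the 8 libraries, by Pearson r among 11413 genes with a mean count of at least 20, were Wscd1 (0.98) and Epb4.1l3 (0.96) for Cdkn1c, Nfasc (0.98) and Lpin2 (0.98) for Phlda2, and Klk8 (0.96) and Rimkla (0.96) for Ascl2. The 8 points share 4 lines, and these values are a description.

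At the chromatin level, SUZ12 lay at 6 of the 10 genes in WT cells, in Ezh2 Y726D cells at 5 of these 6, and in Ezh1/2 dKO cells at Cdkn1c alone. A gene counted as having a peak when a peak lay within 5 kb of 1 of its start sites, and the share of all 22380 annotated protein-coding genes that did so is given beside each count. In WT cells the 6 were Cdkn1c, Phlda2, Ascl2, Kcnq1, Igf2 and Dlk1 (14.4% of protein-coding genes had a peak). Their strongest peaks ranked 133 of 5404 at Igf2 (-log10 p 118, chr7:149845473-149847950), 229 at Cdkn1c (chr7:150644649-150647012), 299 at Ascl2, 602 at Phlda2, 986 at Dlk1 and 1776 at Kcnq1. None of the lists had a SUZ12 peak at Slc22a18, H19, Meg3 or Rian. In Ezh2 KO cells 5 genes had a SUZ12 peak (all but Kcnq1, background 4.22%), with Cdkn1c at rank 51 of 1578. In Ezh1/2 dKO cells the single peak, at Cdkn1c, was 371 bp long and ranked 159 of 317 (background 1.03%). In Ezh2 Y726D cells Cdkn1c, Ascl2, Kcnq1, Igf2 and Dlk1 had a peak and Phlda2 had none (background 10.3%), with Igf2 at rank 253 and Cdkn1c at 347 of 3366. In Ezh2 R685C cells the same 6 genes as in WT had a SUZ12 peak (background 8.44%), with Igf2 at rank 66 of 3231.

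HA-tagged EZH1 in Ezh1/2 dKO cells was listed at the same 6 genes as SUZ12 in WT cells (background 11%), at the start of Phlda2 from 150687613 to 150689065 on chromosome 7, for example. The HA list of Ezh1/2 dKO cells without the tagged protein held 1 of the 10 genes, Meg3 (background 2.9%).

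H3K27me3 lay at the same 6 genes in WT cells (background 18.8%) and at these 6 and H19 in Ezh2 KO cells (14.8%), where EZH1 is the only methyltransferase of PRC2. The strongest WT peaks ranked 33 of 16754 at Cdkn1c and 318 at Ascl2. In the Ezh2 KO list, a single peak of 14165 bp spanned most of Igf2 and ranked 18 of 8956 (-log10 p 513), and a peak of 11404 bp over Cdkn1c ranked 70. Phlda2 ranked 780 in Ezh2 KO and 8471 in WT cells. Ezh1/2 dKO cells had an H3K27me3 peak at 0 of the 10 genes (background 0.103%), and Ezh2 Y726D cells at 2, H19 and Igf2 (background 1.34%). The Igf2 peak, of 668 bp, ranked 3359 of 3862, with its summit at -2986 bp from the gene start. In Ezh2 R685C cells 9 genes had a peak, all but Rian (background 24.6%), and Igf2 carried a peak of 15066 bp at rank 39 of 22245.

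Across whole clusters with 20 kb on either side, H3K27me3 peaks covered more bases in Ezh2 KO than in WT cells. In the Cdkn1c/Kcnq1 cluster (chr7:150132727-150708446) they covered 69293 bp in WT (12.04%), 121817 bp in Ezh2 KO (21.2%) and 100457 bp in Ezh2 R685C cells (17.4%), and 838 bp in Ezh2 Y726D and 0 in Ezh1/2 dKO cells. In the Igf2/H19 cluster (chr7:149741434-149872721) the covered length was 16754 bp in WT, 24059 in Ezh2 KO, 32606 in Ezh2 R685C, 3504 in Ezh2 Y726D and 0 in Ezh1/2 dKO cells. In the Dlk1/Meg3 cluster (chr12:110671033-110919919) it was 8636, 10233 and 16242 bp in WT, Ezh2 KO and Ezh2 R685C cells and 0 in the other 2 lines. The whole list of WT covered 14464825 bp in 16754 peaks (highest -log10 p 72.28), and that of Ezh2 KO 14009472 bp in 8956 peaks (541.33). Kcnq1 with 10 kb on either side held 42878 bp of these peaks in WT, against 86745 bp in Ezh2 KO cells. Covered length in single libraries of unknown depth does not measure the amount of the mark. On blots the paper reports a global loss of H3K27me3 in Ezh2 KO cells. By spike-in ChIP-seq it reports that most H3K27me3 sites of WT cells were kept in Ezh2 KO cells, with reduced spreading of the mark beyond SUZ12 peaks.

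H3K27ac, a mark of active promoters and enhancers, was listed at none of the 10 genes in Ezh2 KO cells (background 37.9%) and in Ezh2 R685C cells (46.0%). It lay at Phlda2 and Ascl2 in Ezh1/2 dKO cells (28.6%), and at Cdkn1c, Phlda2, Ascl2 and Slc22a18 in Ezh2 Y726D cells (47.1%). The Phlda2 peak ranked 6507 of 40829 in Ezh2 Y726D, and 13373 of 17618 in Ezh1/2 dKO cells, and both peaks spanned the Phlda2 promoter printed above. The 3 other genes stood low in the Ezh2 Y726D list, Ascl2 at rank 21753, Slc22a18 at 28171 and Cdkn1c at 35009. H3K27ac of WT cells was not analysed here. The counts of genes with a peak, 2 of 10 and 4 of 10, were not above the share of all protein-coding genes, and RNA and peaks did not go together at each gene, as Cdkn1c had no H3K27ac peak in Ezh1/2 dKO cells and Slc22a18 had one in Ezh2 Y726D cells, where its normalised counts were lowest.

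**Figure D3:**
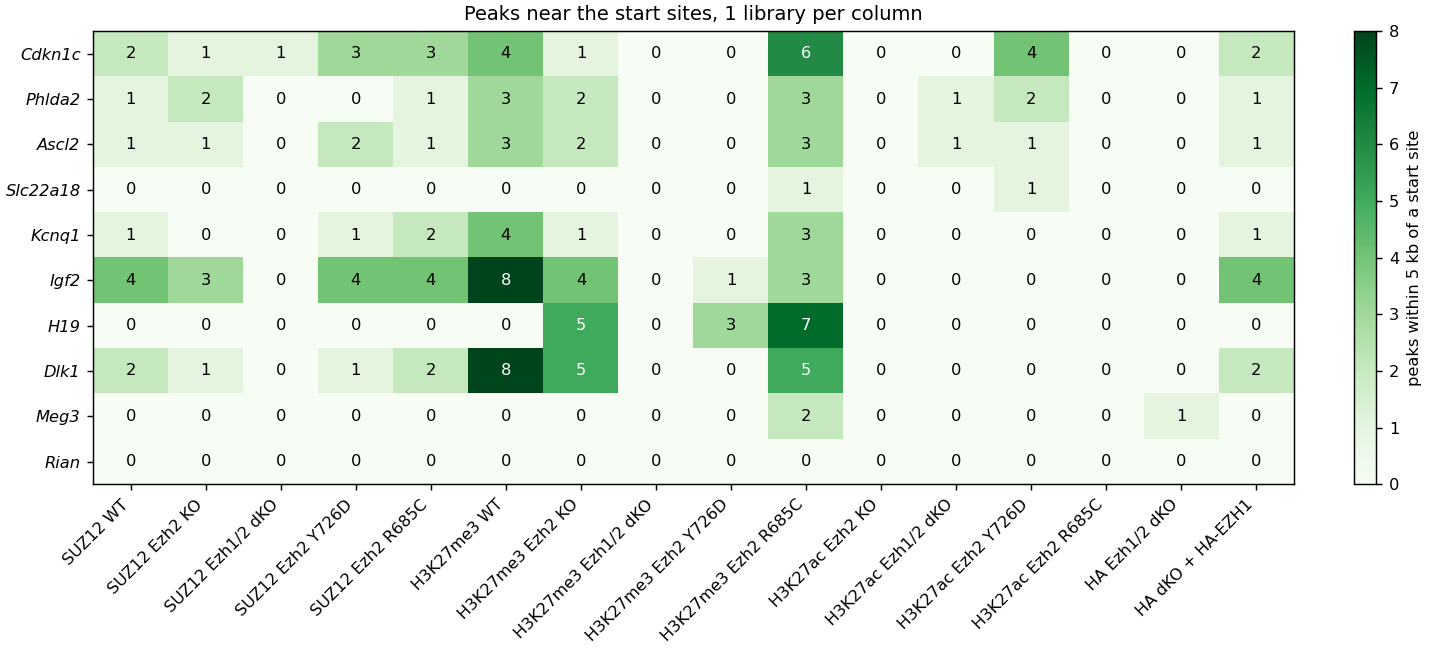
Number of peaks within 5 kb of a start site (colour and digit) for the 10 genes (rows) in each list (columns, 1 library each). SUZ12 and H3K27me3 stand at the same 6 genes in WT, H3K27me3 is absent from 8 of the genes in Ezh2 Y726D and from all in Ezh1/2 dKO, and H3K27ac appears only in these 2 lines.

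At the control regions the lists differed in another way. The windows below, 1 to 6 kb upstream of H19, 2 kb on either side of the Kcnq1ot1 start (position 150482452 of chromosome 7) and 10 to 16 kb upstream of Meg3, were set after the values had been seen, and the counts are a description. Upstream of H19, Ezh2 Y726D cells had 3 H3K27me3 peaks that covered 56.7% of the window, the strongest at rank 442 of 3862, where 0.541% of 15709 protein-coding genes had a peak in the window of the same place and length. Ezh2 KO cells had 3 peaks covering 67.2% (strongest at rank 3070, 7.49% of protein-coding genes) and Ezh2 R685C cells 3 covering 24.1% (10.3%), while WT cells (11.2%) and Ezh1/2 dKO cells (0.0127%) had none. At the Kcnq1ot1 start, Ezh2 Y726D cells had 1 H3K27me3 peak at rank 995 (0.286% of protein-coding genes) and Ezh2 R685C cells 1 (23.8%), and WT, Ezh2 KO and Ezh1/2 dKO cells had none. Upstream of Meg3, Ezh2 KO cells had 3 peaks (3.32%) and Ezh2 R685C cells 1 (7.63%), and WT, Ezh1/2 dKO and Ezh2 Y726D cells had none. Meg3 lies on chromosome 12, which held 1.787% of the H3K27me3 peaks of Ezh2 Y726D and 4.303% of those of WT. The part of this in the absence of an Ezh2 Y726D peak was not tested. SUZ12 and HA peaks were absent from all 3 windows in every list.

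H3K27ac peaks lay at the Kcnq1ot1 start and upstream of Meg3 in Ezh2 KO, Ezh2 Y726D and Ezh2 R685C cells, and in none of the windows in Ezh1/2 dKO cells. Such peaks were common, as 42.2%, 52.6% and 52.5% of protein-coding genes had one in the window of the same place and length as that at the Kcnq1ot1 start, and 11.7%, 17.1% and 18.6% in that upstream of Meg3. At the Kcnq1ot1 start the H3K27me3 peak of Ezh2 Y726D (150481056 to 150481893) and the H3K27ac peak of the same line (150481019 to 150482369) overlapped. The assay does not tell whether both marks lay on 1 parental copy. Kcnq1ot1 RNA, at 1190 to 1793 normalised read counts in the 8 libraries, was not called in any comparison.

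**Figure D4:**
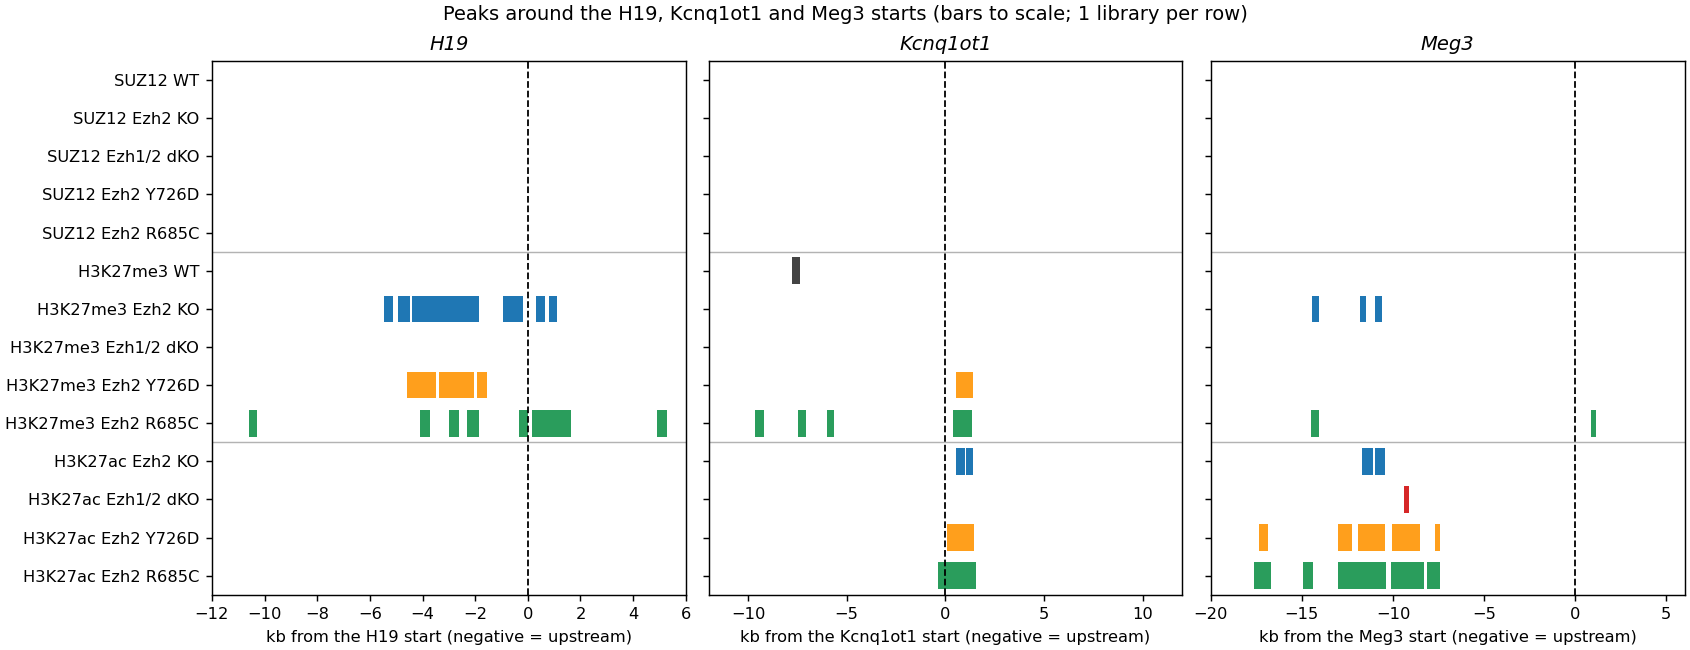
Peaks of SUZ12, H3K27me3 and H3K27ac (rows, 1 library each) against the distance in kb from the H19, Kcnq1ot1 and Meg3 starts, with negative values upstream and bars drawn to scale. H3K27me3 bars of Ezh2 Y726D lie upstream of H19 and just downstream of the Kcnq1ot1 start, where WT and Ezh1/2 dKO have none, and no SUZ12 bar lies in any panel.

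H3K27me3 peaks of Ezh2 Y726D cells also lay at imprinted genes outside these clusters, given here as counts without a test. Of 43 such genes with an annotated start, 17 had an H3K27me3 peak in Ezh2 Y726D cells (39.5%, against 1.34% of protein-coding genes), among them Peg3, Snrpn, Mest, Nnat, Plagl1 and Peg10, and 15 in WT cells (34.9%, against 18.8%). In Ezh2 KO cells 25 had one (58.1%), in Ezh2 R685C cells 26 (60.5%) and in Ezh1/2 dKO cells 0. Of the 17 genes of the Ezh2 Y726D list, Gnas, Nespas, Grb10, Igf2r and Airn were also in the WT list and the other 12 were not. A peak within 5 kb of the starts of more than 1 gene was counted for each, so the 17 genes need not be 17 separate sites.

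H3K27me2 and H3K27me1 were listed as broad regions with weak p-values (the lists begin at a -log10 p of 1), and are given as the share of each gene covered. In Ezh2 KO cells, H3K27me2 covered 100% of Cdkn1c, Phlda2, Ascl2, Slc22a18, H19 and Dlk1, 79.8% of Igf2, 73.1% of Kcnq1, 30.9% of Meg3 and 9.64% of Rian. At least 50% was covered in 8 of the 10 genes, where 17.0% of protein-coding genes were and their median was 0%. In WT, Ezh1/2 dKO and Ezh2 Y726D cells the median over the 10 genes was 3.21%, 13.1% and 14.7%, where the medians of protein-coding genes were 14.98%, 12.95% and 14.46%. Meg3 and Rian, the 2 transcribed noncoding RNAs, thus had the smallest shares among the 10 genes in Ezh2 KO cells.

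H3K27me1 is known to mark transcribed gene bodies. In WT cells it covered 95.3% of Meg3 and 86.0% of Rian, and at most 17.1% of any of the other 8 genes. In Ezh2 KO cells these shares were 31.7% and 5.59%, while H19 had 83.1%, Slc22a18 63.0%, Dlk1 55.9% and Kcnq1 52.4%. The H3K27me1 lists of Ezh1/2 dKO and Ezh2 Y726D cells held regions of 16 and 9 chromosomes, and chromosome 12 is 1 of several without any, so Dlk1, Meg3 and Rian were not analysed in them. Over the 7 genes of chromosome 7, the median was 35.2% in Ezh1/2 dKO and 73.1% in Ezh2 Y726D cells, where the medians of protein-coding genes on the chromosomes listed were 10.5% and 16.4%. Ascl2 and Phlda2 were covered entirely in Ezh2 Y726D cells, and by 42.5% and 89.1% in Ezh1/2 dKO cells. With H3K27me1 regions at a p of at most 1e-03, the median was 0% in both lines. On blots the paper reports a loss of all H3K27 methylation in both. Whether the H3K27me1 and H3K27me2 regions listed for these lines reflect methylation was not tested. The regions of ATAC-seq, an assay of open chromatin, were also listed from a -log10 p of 1. They covered a median of 47.02% over the 10 genes in WT, 40.7% in Ezh2 Y726D, 51.6% in Ezh2 KO and 53.8% in Ezh1/2 dKO cells. Protein-coding genes had medians of 39.6%, 38.8%, 35.3% and 39.8%. With ATAC-seq regions at a p of at most 1e-03, the median over the 10 genes was 0% in every line, so these shares rest on weak regions.

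**Figure D5:**
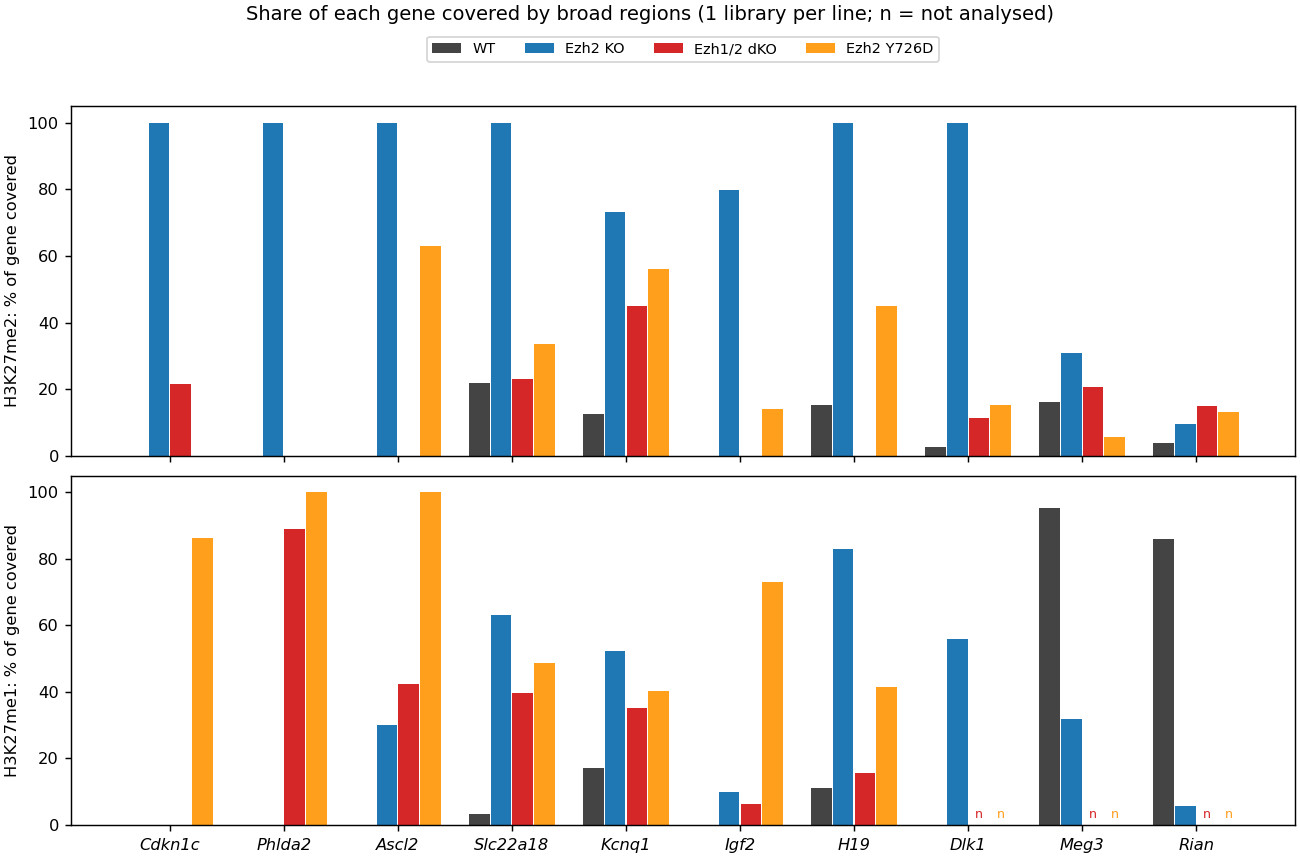
Share of each gene (percent of its length) covered by H3K27me2 regions (top) and H3K27me1 regions (bottom), 1 bar per line from 1 library each, with n where the list holds no region of that chromosome. H3K27me2 of Ezh2 KO covers 8 of the 10 genes by over 50% and Meg3 and Rian least, and H3K27me1 of WT is high at Meg3 and Rian alone.

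Of the neighbouring genes of the 3 clusters, Dio3 was the only one called. Dio3 encodes the deiodinase that inactivates thyroid hormone and lies at the far end of the Dlk1/Meg3 cluster. It had 13.3 and 5.78 normalised read counts in WT, 5.23 and 0.968 in Ezh2 KO, 95.6 and 112 in Ezh1/2 dKO, and 18.7 and 26.9 in Ezh2 Y726D libraries. Both Ezh1/2 dKO libraries stood far above all others, and both Ezh2 Y726D libraries above those of WT. The log2 fold change was 3.41 ± 0.64 in Ezh1/2 dKO against WT (adjusted p = 0.0319, limma), 4.90 ± 0.64 against Ezh2 KO (adjusted p = 0.00648, limma), and 2.74 ± 0.64 in Ezh2 Y726D against Ezh2 KO (adjusted p = 0.0669, limma). Dio3 had SUZ12 and H3K27me3 peaks in WT and Ezh2 KO cells, and SUZ12 but not H3K27me3 in Ezh2 Y726D cells. The other 8 tested neighbours of the Dlk1/Meg3 cluster (Rtl1, Mirg, Wdr25, Wars, Yy1, Ppp2r5c, Dync1h1 and Hsp90aa1), the 10 of the Cdkn1c/Kcnq1 cluster (Kcnq1ot1, Cd81, Tssc4, Tspan32, Nap1l4, Osbpl5, Tnfrsf22, Tnfrsf23, Cars and Dhcr7) and the 2 of the Igf2/H19 cluster (Mrpl23 and Ctsd) were not called in any comparison, and had 0 to 3 genes per cluster and comparison with an unadjusted p under 0.05, Dio3 included, or 4 in the Dlk1/Meg3 cluster for Ezh2 Y726D against Ezh2 KO.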

How the data were processed

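The authors aligned RNA-seq reads with TopHat, counted them without strand with HTSeq-count and deposited a signal per gene and library, counts normalised with DESeq2, of which 100% were whole multiples of 1 read (tolerance 0.001). ChIP-seq and ATAC-seq reads were aligned to mm9 with Bowtie, and MACS2 peaks were deposited by the authors with -log10 p, from 10 in the narrow lists (H3K27me3, SUZ12, H3K27ac) and from 1 in the broad ones. The HA lists give positions only.

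Here, log2(normalised count + 1) of genes with a mean of at least 5 was fitted by line over all 8 libraries with limma 3.58.1 in R 4.3.3, with Benjamini-Hochberg adjustment. The recovered reads were also tested with edgeR 4.0.16 (quasi-likelihood) and DESeq2 1.42.0. On simulated data of 13872 genes for Ezh2 KO against WT, the fit called 153 of 200 genes given a 4-fold change (76.5%) and 16 others, and 0 where no gene changed. Replicates of a line correlated at 0.953 to 0.9783 across genes. Peaks were counted within 5 kb of a start site, on GENCODE positions, with Python 3.11.15 and pandas 2.3.3. Figures used matplotlib 3.10.9.

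The genes named are the 10 genes, Ezh1 and Ezh2, the tested neighbours, other imprinted genes called against WT (at most 10) and the 2 genes most like each called gene. These genes and lists were chosen with earlier results of these data known, and Peg3, Snrpn, Mest, Nnat and the other genes named from the peak lists after their values were seen. RING1B, H2AK119ub, WT H3K27ac, input DNA, the EZH2 rescue and the DMSO and MG132 samples were not analysed here.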

Additional observations from a re-analysis of the deposited data

Results flagged for a closer look

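Each of the values below is a difference between 2 edited lines that passed the test of the difference itself (limma, adjusted p under 0.1 and a log2 fold change of at least 1 in size), and so marks a gene whose difference from WT was not the same in the 2 lines. Higher in Ezh1/2 dKO than in Ezh2 KO cells were Cdkn1c by 3.10, Ascl2 by 2.36, Phlda2 by 1.19 and Dio3 by 4.90 on the log2 scale. Higher in Ezh2 Y726D than in Ezh2 KO cells were the same 4 genes, Cdkn1c by 2.46, Ascl2 by 2.75, Phlda2 by 1.66 and Dio3 by 2.74. Some of these calls were lost under alternatives, Cdkn1c in Ezh2 Y726D in 10 of 18 settings (edgeR included), Ascl2 in Ezh1/2 dKO in 7 (edgeR included), and Cdkn1c in Ezh1/2 dKO, Phlda2 in Ezh1/2 dKO and Ascl2 in Ezh2 Y726D in 4, 3 and 2. The calls of Dio3 were not followed under the alternatives, and its reads in the Ezh2 KO libraries were 5 and 1. For each of the 4 genes, in both comparisons, both libraries of the line lay above both Ezh2 KO libraries, which the 2 comparisons share.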

How the results depend on the processing

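With 2 libraries per line, calls rest on few values, and low counts (Kcnq1, H19, Dlk1) allow only ratios with counting intervals. Peak lists come from 1 library of unknown depth. The causes of the changes below were not tested.

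Of the 7 genes, the number called changed as follows. In Ezh1/2 dKO against WT it was 0, and 1 with no filter on low values (H19, which the filter had left out) or with libraries of other lines removed from the fit (Igf2), and 0 to 1 with each library left out. In Ezh2 Y726D against WT it was 1, and 2 with a pseudocount of 5 or quantile normalisation (Slc22a18 added), 0 with those of other lines removed, and 0 to 1 with each library left out. In Ezh1/2 dKO against Ezh2 KO it was 3, and 1 with quantile normalisation, 2 in edgeR and with a mean count of at least 20 (Ascl2 lost in both), 3 with no filter (H19 in place of Ascl2) and 0 to 3 with each library left out. In Ezh2 Y726D against Ezh1/2 dKO it was 0, and 1 with no filter (H19). In Ezh2 Y726D against Ezh2 KO it was 3, and 1 with the 4 other libraries removed from the fit, 2 in edgeR and with a pseudocount of 5, no filter, a mean count of at least 20 or quantile normalisation (Cdkn1c lost in each), and 1 to 3 with each library left out. In Ezh2 KO against WT it was 0 in each of these settings. Over all genes tested, 496 were called in Ezh1/2 dKO against Ezh2 KO, with 53 to 1181 over the alternatives.

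Nothing in the labels pairs same-numbered libraries of different lines. The deviations of same-numbered libraries correlated at 0.22 to 0.29 in the 3 pairs of edited lines and at -0.41 to -0.07 in the 3 pairs with WT, so the pairing was not established, and a fit with the replicate number as a block gave the same counts of calls as without it, against WT 0 in Ezh2 KO, 1 in Ezh2 Y726D and 0 in Ezh1/2 dKO, and 3, 0 and 3 in the other comparisons.

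Values that were not called changed sign as follows, with the range over leaving out each library in turn. Igf2 in Ezh2 KO against WT was 0.25 with a pseudocount of 5, 1.12 in edgeR, 1.15 in DESeq2 and -2.43 to 1.95 with libraries left out (Ezh2 KO replicates 1 and 2), and in Ezh2 Y726D against Ezh2 KO it was -0.055 to 4.33 (replicates 2 and 1 of Ezh2 KO). Meg3 was -0.48 to 0.31 in Ezh2 KO against WT and -0.25 to 0.53 in Ezh2 Y726D against WT (WT replicates). Cdkn1c in Ezh2 Y726D was -0.38 to 1.082 against WT (Ezh2 Y726D replicates) and -1.47 to 0.20 against Ezh1/2 dKO (Ezh1/2 dKO replicates, and 0.09 without Ezh2 Y726D replicate 2), and Ascl2 was -0.19 to 0.99 against Ezh1/2 dKO (Ezh2 Y726D replicates). Slc22a18 in Ezh1/2 dKO against Ezh2 KO was -0.22 with quantile normalisation. Of the values of single genes under the alternatives, 702 kept their direction and side of the threshold, 28 lost a call, 8 gained one and these 12 changed sign.

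With peaks at a p of at most 1e-20, SUZ12 was left at 0 of the 10 genes in Ezh1/2 dKO and 2 in Ezh2 Y726D, H3K27me3 at 1 in Ezh2 Y726D, and H3K27ac at 0 in Ezh1/2 dKO and 1 in Ezh2 Y726D. With a window of 2 kb, H3K27me3 of Ezh2 Y726D lay at 1, and with one of 10 kb H3K27ac of Ezh2 R685C at 2. Over the gene body with 10 kb on each side, H3K27ac lay at 5 in Ezh1/2 dKO, 1 in Ezh2 KO and 2 in Ezh2 R685C. With regions at a p of at most 1e-03, the median cover was 0% for H3K27me2, H3K27me1 and ATAC-seq, except H3K27me2 in Ezh2 KO, which stayed at 100%. Over the gene body with 10 kb on each side, it was 11.2%, 27.2% and 27.9% for H3K27me2 in WT, Ezh1/2 dKO and Ezh2 Y726D, and 10.7%, 50.3% and 47.2% for H3K27me1 in WT, Ezh2 KO and Ezh2 Y726D.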

Other observations

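Among 31 tested imprinted genes outside the 3 clusters, 1 was called lower in Ezh2 KO than in WT, 4 were called higher in Ezh1/2 dKO, and 2 higher and 1 lower in Ezh2 Y726D, where 0.31%, 3.63%, 1.66% and 1.06% of all genes tested were called in the same directions. Plagl1, a zinc finger transcription factor, was lower than in WT, with a log2 fold change of -2.84 in Ezh2 KO and of -4.46 in Ezh2 Y726D (adjusted p = 0.0223 and 0.00197, limma). Its normalised read counts were 227 and 187 in WT, 23.0 and 33.9 in Ezh2 KO, 88.2 and 69.3 in Ezh1/2 dKO, and 6.24 and 11.2 in Ezh2 Y726D libraries. The libraries of the 3 edited lines lay below those of WT and did not overlap each other. Plagl1 had an H3K27me3 peak in Ezh2 KO, Ezh2 Y726D and Ezh2 R685C cells and none in WT and Ezh1/2 dKO cells.

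Ndn, Magel2 and Peg12, neighbouring paternally expressed genes, were higher in Ezh1/2 dKO than in WT by 2.21, 3.53 and 2.77 on the log2 scale (adjusted p = 0.014, 0.0518 and 0.0256, limma). Ndn and Peg12 were also higher in Ezh2 Y726D, by 2.01 and 2.87 (adjusted p = 0.022 and 0.0255, limma). All 3 had SUZ12 and H3K27me3 peaks in WT cells, and none had a peak of H3K27me3 in Ezh2 Y726D or in Ezh1/2 dKO cells. Calcr, the calcitonin receptor, was higher in Ezh1/2 dKO by 3.598 (adjusted p = 0.0262, limma). Of 4 tested genes imprinted in the placenta by histone marks, Sfmbt2 was higher in Ezh1/2 dKO by 1.88 and in Ezh2 Y726D by 1.27 (adjusted p = 0.0075 and 0.0324, limma), and Smoc1 was lower in Ezh2 KO, with a log2 fold change of -1.57 (adjusted p = 0.0124, limma).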
